A study of Mus musculus with 8 samples.

Results

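The genes described here are the cadherin superfamily, the cell-surface proteins built from repeated calcium-binding extracellular cadherin domains. The members are the protein-coding mouse genes named Cdh with a number, Cdhr1 to Cdhr5, the Celsr, Fat and Dchs genes, and every gene whose symbol begins with Pcdh. A total of 72 of the 38355 genes in the files met that rule, and 67 of them had enough counts to be tested. The samples were thoracic dorsal root ganglia, the sensory ganglia beside the spinal cord, dissected together with the adjoining spinal cord from C57Bl6 mouse embryos at E11.5. The KO group of 4 libraries has the genotype Prdm12-/-, and the WT group of 4 libraries is wild type at that locus with the same strain, age and tissue. Prdm12 is a transcriptional regulator with a PR domain and zinc fingers, known from the nociceptor lineage. How the allele was made, and whether a library came from 1 embryo or from a pool, is not given in the sources used here. The p-values therefore measure only the spread between these libraries, which may be partly technical. The series text speaks of triplicates, while 4 libraries a group are listed and all 8 were used.

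Classical cadherins bind the same or a similar cadherin on the neighbouring cell and are anchored inside to actin through catenins. Fat and Dachsous proteins bind each other across cell borders and Celsr proteins bind their own kind, and both systems orient cells within a tissue sheet. Clustered protocadherins are chosen in different combinations by single neurons, whose branches then recognise their own membrane. In the developing spinal cord and its ganglia, cadherins are known for holding the neuroepithelium together, for the departure of neural crest cells and for the sorting of neurons into groups.

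Total counts were 67782435 in WT replicate 1, 2.55 times the median total of the other 7, and these ranged from 23088908 to 28500792. Levels are given as CPM, read counts scaled to the normalised library size. Prdm12 stood at 22.2 to 39.6 CPM in the WT libraries and at 0.962 to 1.55 CPM in the KO libraries, matching the labels. A pair of libraries stood apart in their tissue markers. WT replicate 1 held 440 summed CPM of the 10 sensory neuron markers present in the files, against 569 to 602 in the other WT libraries and 411 to 479 in the KO libraries. KO replicate 4 held 797 summed CPM of 6 skeletal muscle markers, against 539 to 634 in the other KO libraries and 480 to 584 in the WT libraries. The median log2 fold change of these 6 markers, KO over WT, was 0.30, and 0 were called. Where leaving out 1 library moves a log2 fold change given below by over 1.5 times, a value without such a library is given with it.

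In the KO libraries 1 member of the family, Cdhr1, was lower than in WT, and no other member passed the test in either direction. Of the 67 members tested, 1 was lower, 0 were higher and 66 did not pass at an adjusted p under 0.05 (edgeR quasi-likelihood test, Benjamini-Hochberg over 16068 genes). Over all genes 0.243% were called lower and 0.056% higher. DESeq2 called 1 member lower and 0 higher, beside 0.504% and 0.137% of all genes. With limma-voom 0 members were called in either direction, beside 0.193% of all genes lower and 0.056% higher. At an unadjusted p under 0.05 there were 3 lower members (Cdhr1, Cdh2, Pcdh17) and 1 higher member (Cdh20), or 5.97% of the 67 in all. Over all genes 3.32% were lower and 3.03% higher by that rule, or 6.35% in all. Libraries of the 2 groups did not overlap for 3 members (Cdhr1, Cdh2, Cdh20), or 4.48% of the 67. Over all genes the share was 4.14%, with KO lower in 2.45% and higher in 1.69%. These shares are close to those of the whole table. The median log2 fold change, KO over WT, was 0.04 over the 67 members and −0.003 over all genes tested, with point estimates above 0 for 39 members (58.2%) and for 48.4% of all genes.

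**Figure D1:**
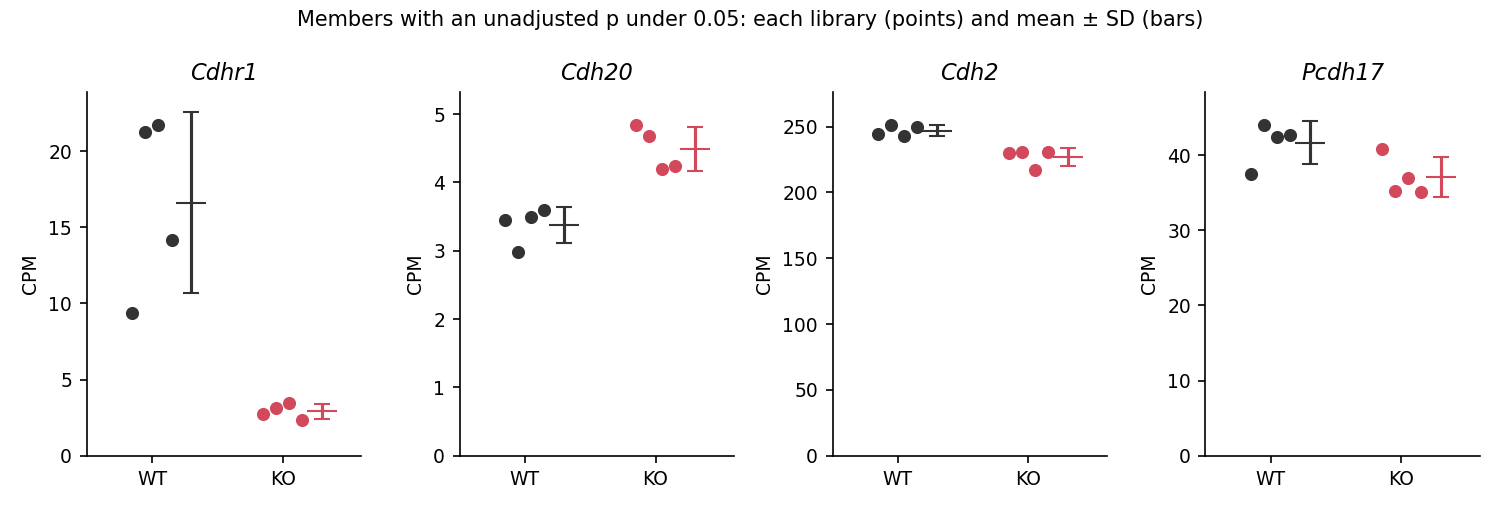
CPM (vertical axes, linear, from 0) of the 4 members with an unadjusted p under 0.05, with each of the 4 WT and 4 KO libraries as a point and the mean ± SD as bars. Cdhr1 libraries lay at 9.39 to 21.7 CPM in WT and 2.32 to 3.49 CPM in KO, a wider gap than in the other 3 genes.

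Cdhr1 encodes photoreceptor cadherin, best known from the base of the photoreceptor outer segment and from olfactory bulb mitral cells. The gene (ENSMUSG00000021803) lies on the minus strand of mm10 chromosome 14, from 37077857 to 37098347, with 4332 bases of exon. The 250 bases just before its annotated start are shown because this promoter belongs to the 1 member that passed the test. They are chr14:37098348-37098597, minus strand, from RefSeq on GRCm38.p6, and the capitals mark the match to the E-box letters CANNTG.
Cdhr1: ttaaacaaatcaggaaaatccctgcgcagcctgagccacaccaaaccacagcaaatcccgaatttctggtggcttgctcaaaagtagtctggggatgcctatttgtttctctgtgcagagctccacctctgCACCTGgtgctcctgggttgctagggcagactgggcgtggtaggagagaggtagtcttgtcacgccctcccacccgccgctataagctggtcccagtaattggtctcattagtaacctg
The 1 match began 119 bases before the start, and 66.2% of 32851 RefSeq promoter windows of the same length held at least 1. The letters TAATCC, searched on both strands as the core bound by Otx-type homeodomain factors such as Crx, had 0 matches here and occurred in 6.25% of windows. The motifs do not overlap in their letters, and a match is a description of the sequence and not a binding site.

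The WT libraries, replicates 1 to 4, held 9.39, 21.3, 21.7 and 14.2 CPM of Cdhr1, and the KO libraries held 2.71, 3.12, 3.49 and 2.32 CPM. The groups did not overlap, the KO libraries lay close together, and WT replicate 1 was the lowest of its group. Mean Cdhr1 was 16.6 ± 5.94 CPM among WT and 2.91 ± 0.506 CPM among KO libraries (SD, n = 4 each), so the KO mean was 17.5% of the WT mean. The log2 fold change was −2.50 (SE 0.29, 95% interval −3.14 to −1.85, edgeR adjusted p = 0.00987). The lowest WT library still held 2.69 times the CPM of the highest KO library. Behind these values were 402 to 632 counts in each WT library and 53 to 93 in each KO library, so transcripts remained in every KO library. In a bulk sample, fewer cells that express Cdhr1 and less Cdhr1 RNA in each cell cannot be told apart.

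The direction of Cdhr1 held in all 18 alternatives, with log2 fold changes from −3.02 to −2.31, but 7 of them lost the call. The call was lost when low counts were not filtered (−2.50, edgeR adjusted p = 0.0650), with limma-voom (−2.31, adjusted p = 0.0638), with a muscle and mesenchyme covariate (−3.02, edgeR adjusted p = 0.0914), and when any 1 KO library was left out (−2.59 to −2.40, edgeR adjusted p = 0.0552 to 0.0790). The covariate, a mean log2 level of the muscle and mesenchyme markers, lay at 6.45 to 6.63 in WT and 6.61 to 6.87 in KO. It thus largely follows genotype, and a fit that holds both cannot separate them well. Without WT replicate 1 the log2 fold change was −2.70 (edgeR adjusted p = 3.6e-05), and without both WT replicate 1 and KO replicate 4 it was −2.61 (edgeR adjusted p = 0.000315).

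Per kb of exon, Cdhr1 stood at 3.84 ± 1.37 CPM per kb among WT and 0.672 ± 0.117 CPM per kb among KO libraries (SD, n = 4 each). That placed it 20th of the 72 members by level in WT and 44th in KO. Sensory neuron markers moved beside it. Of the 10 such markers in the files, 2 were called lower and 0 higher, with a median log2 fold change of −0.28 over the 10, and 1 of 6 markers of crest and glia was called lower. Their part in the Cdhr1 difference was not tested. Photoreceptor, retina and olfactory markers were near 0. The 5 photoreceptor and retina markers summed to 0.393 to 1.29 CPM in each library, with Crx at 0 in all 8. The 3 olfactory markers, Omp, Gng13 and Cnga2, summed to 0.397 to 0.841 CPM. Markers of mitral cells were not examined.

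No other annotated gene within 200 kb of Cdhr1 was called. Rgr, an opsin-like retinal receptor gene, held 0 to 0.040 CPM, and the retinal genes Lrit1 and Lrit2 held 0 to 0.037 and 0 to 0.030 CPM, so these 3 could not be compared. The uncharacterised 2610528A11Rik held 0.036 to 0.332 CPM and the snoRNA Gm22469 had 0 counts in all 8 libraries. Ghitm, a mitochondrial inner membrane protein gene 21745 bases from Cdhr1, lay at 147 to 153 CPM in WT and 147 to 156 CPM in KO. Ccser2 lay at 78.1 to 97.3 CPM in WT and 70.1 to 86.0 CPM in KO. Libraries of both groups overlapped for each, and neither passed the test (edgeR adjusted p = 0.999 and 0.705). Ccser2 had a log2 fold change of −0.20 (SE 0.08, 95% interval −0.36 to −0.03, edgeR unadjusted p = 0.024).

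Of the other cadherin-related genes, Cdhr4 and Cdhr3 were tested and did not pass. Cdhr4 lay at 1.37 to 2.67 CPM in WT and 1.73 to 3.08 CPM in KO. Cdhr3, known from ciliated airway epithelium, lay at 0.295 to 0.823 and 0.219 to 0.903 CPM. Cdhr2 and Cdhr5, which link the tips of intestinal microvilli, stayed at or under 0.440 CPM in every library and were not tested. Cdhr1 thus made up most of the summed CPM of the 5 cadherin-related genes in WT, which was 11.6 to 25.4 CPM in the WT libraries and 4.81 to 7.17 CPM in the KO libraries.

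Among the 5 type I classical cadherins, 0 passed in either direction, and their median log2 fold change was 0.14. Cdh2, the N-cadherin of neural tissue, was the most abundant. WT replicates 1 to 4 held 244, 251, 243 and 249.7 CPM and the KO replicates held 230.1, 231, 217 and 231 CPM. Every KO library lay below every WT library, by a small margin. The means were 247 ± 4.15 and 227 ± 6.75 CPM (SD, n = 4 each), and the log2 fold change was −0.12 (SE 0.04, 95% interval −0.21 to −0.04, edgeR adjusted p = 0.542). Neural tube progenitor markers, the cells in which Cdh2 is best known here, summed to 2575 to 2855 CPM in WT and 2435 to 2583 CPM in KO, with 0 of 6 called. Their part in the Cdh2 values was not tested.

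Cdh4, the R-cadherin of the nervous system, lay at 40.2 to 67.5 CPM in WT and 55.9 to 80.4 CPM in KO, and Cdh3, or P-cadherin, at 37.0 to 49.7 and 45.7 to 55.3 CPM. WT replicate 1 was the lowest library for both. Neither passed the test, and the groups overlapped.

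Cdh15, the M-cadherin of myoblasts, had 42.2, 43.7, 45.5 and 39.3 CPM in the WT libraries and 40.6, 44.6, 50.5 and 64.8 CPM in the KO libraries, each in the order of their replicate numbers. KO replicate 4 stood above the other 7 libraries and also had the highest sum of skeletal muscle markers. The log2 fold change was 0.23 (SE 0.13, edgeR adjusted p = 0.852), without KO replicate 4 it was 0.086, and with the muscle and mesenchyme covariate it was −0.15. Cdh1, the E-cadherin of epithelia, lay at 12.7 CPM in WT replicate 1 and 10.8 CPM in KO replicate 4, and at 3.84 to 7.39 CPM in the other 6 libraries. Those same libraries had the highest sums of 7 surface epithelium markers, at 64.3 and 59.0 CPM against 36.1 to 55.7 CPM. The groups overlapped for Cdh1 and it did not pass. The part of these tissues in the values was not tested.

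**Figure D2:**
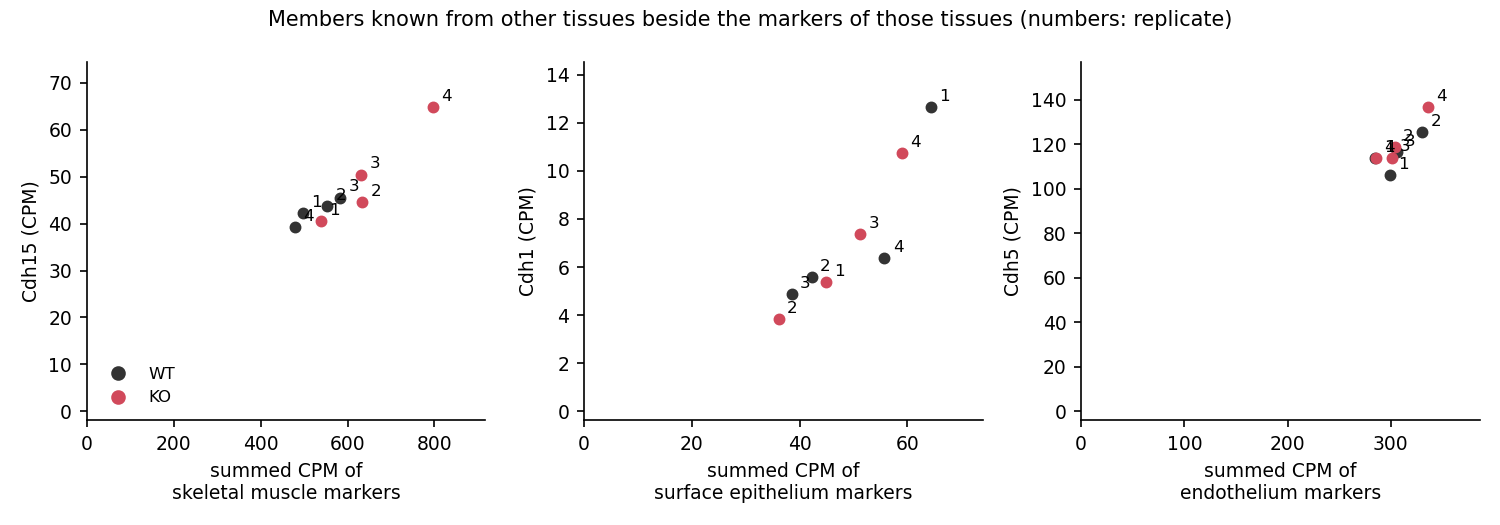
CPM of Cdh15, Cdh1 and Cdh5 (vertical axes, linear) against the summed CPM of markers of skeletal muscle, surface epithelium and endothelium (horizontal axes, linear), 1 point a library, numbered by replicate. KO replicate 4 lies highest for Cdh15 (64.8 CPM) and Cdh5 (137 CPM), and WT replicate 1 highest for Cdh1 (12.7 CPM), each at the highest or nearly the highest marker sum.

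Among the 13 type II cadherins, 0 passed in either direction, with 9 point estimates above 0 and 4 below, and a median log2 fold change of 0.07. Cdh20, a cadherin of the embryonic neural tube, stood at 3.45, 2.99, 3.49 and 3.59 CPM in WT replicates 1 to 4. In KO replicates 1 to 4 it stood at 4.84, 4.68, 4.20 and 4.24 CPM. All KO libraries lay above all WT libraries. The means were 3.38 ± 0.268 and 4.49 ± 0.320 CPM (SD, n = 4 each), and the log2 fold change was 0.41 (SE 0.11, 95% interval 0.17 to 0.65, edgeR adjusted p = 0.352). The adjusted p lay between 0.267 and 0.904 in the 18 alternatives.

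Cdh20 shares mm10 chromosome 1 with Cdh7 and Cdh19. The 3 genes lie between 104768529 and 110977584. Cdh19, known from Schwann cell precursors, lay at 3.57 to 5.20 CPM in WT and 4.37 to 6.53 CPM in KO (log2 fold change 0.30, SE 0.15, edgeR adjusted p = 0.827, and 0.20 without WT replicate 1). The 6 crest and glia markers summed to 450 to 553 CPM in WT and 429 to 526 CPM in KO. Cdh7 lay at 3.42 to 5.53 and 3.67 to 4.96 CPM (log2 fold change −0.13, SE 0.17, edgeR adjusted p = 0.957, and −0.26 without WT replicate 1 or −0.046 without WT replicate 3). Values of the 3 genes thus did not all lie in the same direction, and Cdh7 and Cdh19 overlapped between groups.

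Cdh10 and Cdh18, type II cadherins of neurons on chromosome 15, had the next values above 0. Cdh10 lay at 7.84 to 10.6 CPM in WT and 10.1 to 11.6 CPM in KO (log2 fold change 0.20, SE 0.10, edgeR adjusted p = 0.822, and 0.13 without WT replicate 1). Cdh18 lay at 2.70 to 4.10 and 3.41 to 4.72 CPM (log2 fold change 0.24, SE 0.16, edgeR adjusted p = 0.895, and 0.12 without WT replicate 1). Cdh8, a synaptic cadherin, stood at 7.78, 12.1, 11.1 and 11.1 CPM in WT and 7.69, 12.5, 7.20 and 7.48 CPM in KO replicates 1 to 4. One WT library sat with 3 KO libraries and 1 KO library with 3 WT libraries, and the log2 fold change was −0.26 (SE 0.20, edgeR adjusted p = 0.911). It was −0.49 without KO replicate 2 and −0.17 without KO replicate 3.

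Cdh11, the cadherin of mesenchyme, was the most abundant type II member at 268 to 316 CPM in WT and 286 to 322 CPM in KO. The 8 mesenchyme and sclerotome markers summed to 1849 to 2519 CPM in WT and 2395 to 2699 CPM in KO. Cdh5, the VE-cadherin of endothelium, lay at 106 to 125 CPM in WT and 114 to 137 CPM in KO, beside endothelium markers at 285 to 331 and 286 to 336 summed CPM. Cdh24 lay at 32.5 to 41.9 and 37.2 to 40.7 CPM (log2 fold change 0.09, SE 0.07, edgeR adjusted p = 0.924, and 0.036 without WT replicate 1 or 0.15 without WT replicate 4). Cdh6, a cadherin of premigratory neural crest, lay at 27.2 to 34.2 and 27.2 to 32.4 CPM. The groups overlapped for all 4.

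Outside the 2 classical types, Cdh13, the T-cadherin that is held in the membrane by a lipid anchor and has no cytoplasmic tail, lay at 18.5 to 30.6 CPM in WT and 26.4 to 30.6 CPM in KO. Its log2 fold change was 0.14 (SE 0.14, edgeR adjusted p = 0.938). It was 0.010 without WT replicate 1, 0.24 without WT replicate 2 and −0.0098 without WT replicate 1 and KO replicate 4. Cdh23, which pairs with Pcdh15 in the tip links of hair cells, and Cdh26 lay between 0.542 and 1.49 CPM. Cdh17, of liver and intestine, stayed at or under 0.588 CPM. Cdh16, the kidney cadherin, held 3.15 CPM in KO replicate 4 and 0 to 0.253 CPM in the other 7 libraries. Upk3b, a mesothelial marker, was at 5.77 CPM in KO replicate 4 and 2.302 CPM in WT replicate 1. The other 6 libraries held 0 to 0.112 CPM of Upk3b. It belongs to a list of 6 nephric and mesothelial genes that was added after the values were seen. Of that list, Emx2, Osr1, Tfcp2l1 and Wt1 were also highest in KO replicate 4. Pax8 went the other way and was lowest of all libraries in KO replicate 4, at 13.2 CPM. Cdh16 and Cdh17 were not tested between groups.

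Of the 3 Celsr genes, the mammalian flamingo receptors of planar cell polarity, 0 passed and all 3 point estimates were below 0. Celsr2 stood at 362, 328, 299.5 and 308 CPM in WT and 326, 286, 261 and 304 CPM in KO replicates 1 to 4. The groups overlapped, and the log2 fold change was −0.14 (SE 0.08, 95% interval −0.31 to 0.03, edgeR adjusted p = 0.839). Without WT replicate 1 it was −0.077. Celsr3, known from axon guidance, lay at 104 to 119 and 89.2 to 108 CPM (log2 fold change −0.095, SE 0.07, edgeR adjusted p = 0.903, and −0.030 without KO replicate 3). Celsr1 lay at 61.8 to 88.5 and 61.1 to 81.5 CPM. The 3 genes summed to 507 ± 38.5 CPM over the WT libraries and 467 ± 44.0 CPM over the KO libraries (SD, n = 4 each).

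None of the 5 Fat and Dachsous genes passed, and their median log2 fold change was 0.05. Fat1 stood at 254, 257, 194 and 189 CPM in WT and 234, 232, 212 and 281 CPM in KO replicates 1 to 4. WT replicates 1 and 2 and KO replicate 4 were high and WT replicates 3 and 4 low, so the groups overlapped throughout (log2 fold change 0.10, SE 0.12, 95% interval −0.18 to 0.38, edgeR adjusted p = 0.956). It was 0.016 without KO replicate 4 and 0.18 without WT replicate 1. The same 3 libraries were the highest for Fat3 and Fat4, with 118.4, 118.5, 88.8 and 87.95 CPM of Fat3 in WT replicates 1 to 4 and 120 CPM in KO replicate 4. Dchs1, the partner that Fat4 binds, was highest in KO replicate 4 at 339 CPM and WT replicate 2 at 333 CPM. Fat2, of cerebellar and epithelial tissue, stayed between 0.740 and 2.02 CPM. The 5 genes summed to 814 ± 99.2 CPM over the WT libraries and 840 ± 91.4 CPM over the KO libraries (SD, n = 4 each), about 24.0% and 24.7% of the family's CPM.

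**Figure D3:**
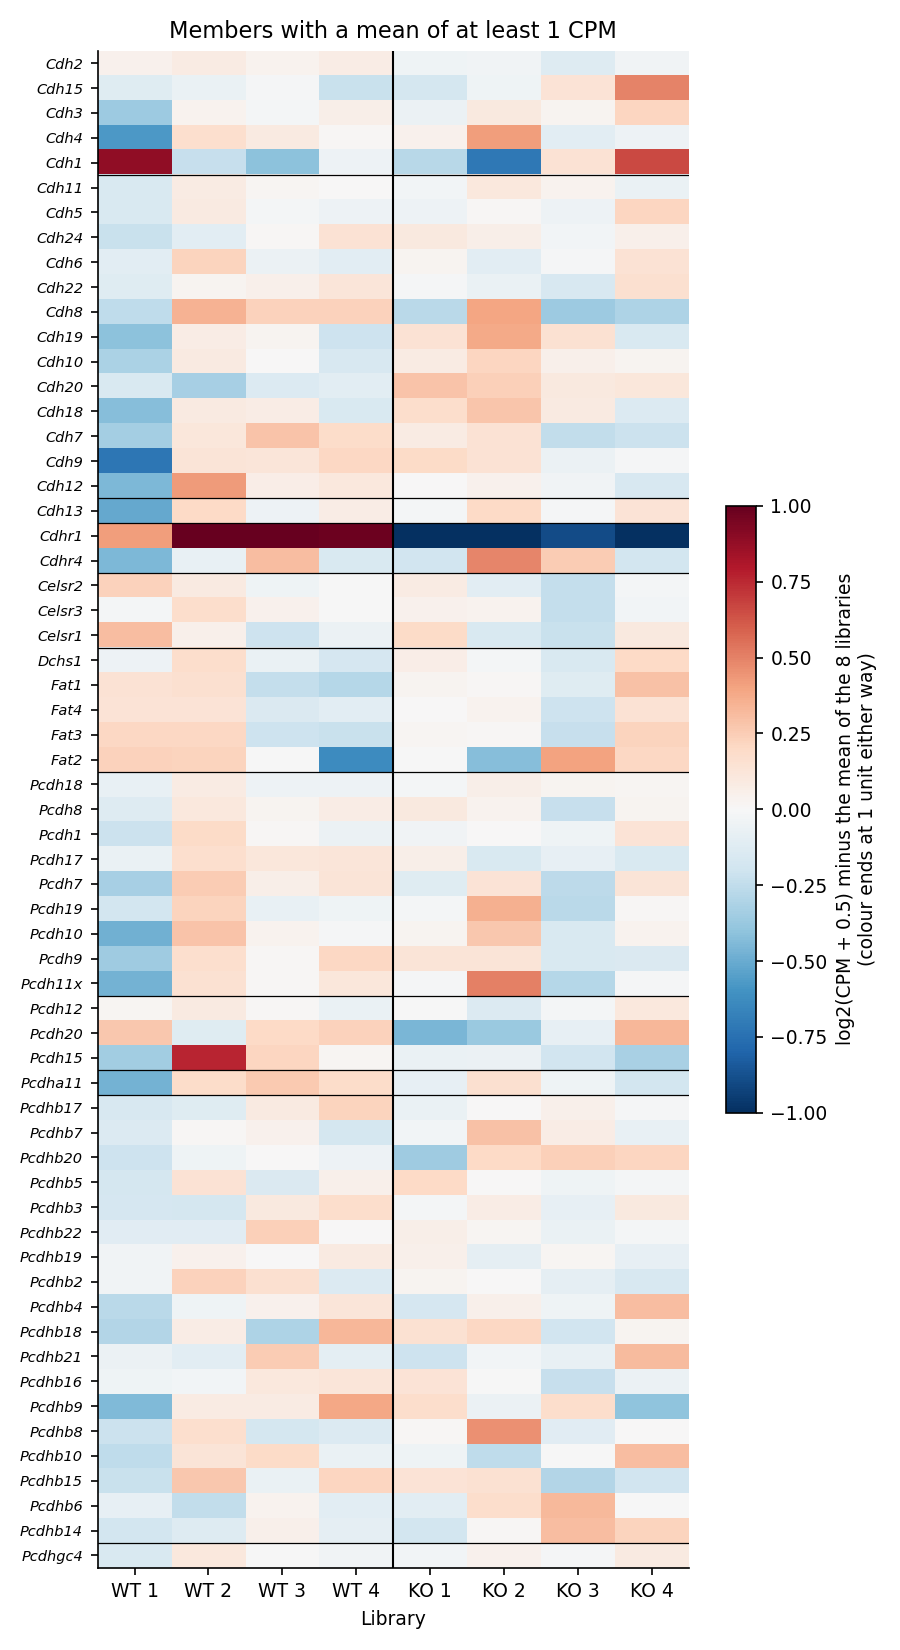
Colour shows log2(CPM + 0.5) of each of the 61 members with a mean of at least 1 CPM (rows, by subfamily) in each library (columns), minus its mean over the 8 libraries. Cdhr1 separates the WT and KO columns, while most other rows vary by library, with many low in WT replicate 1.

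The 9 delta protocadherins, single genes outside the clusters with roles in neuron sorting and movement, gave 0 calls. Their point estimates ran from −0.17 to 0.13 and all 9 had a 95% interval within 1.5-fold either way. Pcdh17, which acts in axons and at synapses, had the smallest p. It stood at 37.5, 44.0, 42.5 and 42.8 CPM in WT and 40.9, 35.2, 37.0 and 35.2 CPM in KO replicates 1 to 4. KO replicate 1 overlapped the WT libraries, and the log2 fold change was −0.17 (SE 0.07, 95% interval −0.31 to −0.02, edgeR adjusted p = 0.731). Pcdh18 was the most abundant of the 9 at 183 to 204 CPM in WT and 191 to 201 CPM in KO. Pcdh8, the paraxial protocadherin, lay at 34.4 to 40.5 and 32.1 to 40.4 CPM. Pcdh10 was at 30.1 CPM in WT replicate 1 and 37.9 to 51.5 CPM in the other 7 libraries.

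Of the other single protocadherins, Pcdh15, which meets Cdh23 in the hair cell tip link, stood at 2.41, 5.76, 3.80 and 3.24 CPM in WT and 3.03, 3.04, 2.74 and 2.45 CPM in KO replicates 1 to 4. The groups overlapped (log2 fold change −0.41, SE 0.24, 95% interval −0.93 to 0.12, edgeR adjusted p = 0.868). WT replicate 2 was the highest library, and without it the value was −0.14. Pcdh20 lay at 2.10 to 2.90 and 1.55 to 3.06 CPM (log2 fold change −0.33, SE 0.21, edgeR adjusted p = 0.877, and −0.21 without KO replicate 1 or −0.56 without KO replicate 4). Pcdh12, of endothelium, lay at 17.8 to 19.9 and 16.9 to 20.2 CPM. None of the 3 passed.

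The clustered protocadherins lie side by side on chromosome 18. The alpha cluster and the gamma cluster have 1 row each in the files, named Pcdha11 (ENSMUSG00000007440) and Pcdhgc4 (ENSMUSG00000023036). Which exons of its cluster each row counted is not given in the sources used here. A further 13 alpha and 20 gamma genes of the annotation, and Dchs2, have no row of their own and could not be analysed. The Pcdhgc4 row was the largest of the family at 483, 577, 536 and 523 CPM in WT and 526, 553, 532 and 571 CPM in KO replicates 1 to 4. The groups overlapped (log2 fold change 0.04, SE 0.06, 95% interval −0.08 to 0.16, edgeR adjusted p = 0.957). It was 0.0084 without WT replicate 1 and 0.086 without WT replicate 2. The Pcdha11 row stood at 25.0, 39.7, 42.0 and 39.8 CPM in WT and 33.1, 39.2, 34.0 and 30.7 CPM in KO. WT replicate 1 was the lowest of all 8 (log2 fold change −0.09, SE 0.15, edgeR adjusted p = 0.969). Without that library the value was −0.23, with an adjusted p of 0.370, and without WT replicate 3 it was −0.016.

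The beta cluster has a row for each of its 22 genes, whose sequences are alike, so reads may be shared between them. Pcdhb1 had 0 counts in all 8 libraries, which allows up to 0.012 CPM over the 8 (3 counts, counting error only). The other 21 were tested and 0 passed, with 13 point estimates above 0 and 8 below, from −0.14 to 0.27. Pcdhb17 was the most abundant at 6.997 to 9.26 CPM in WT and 7.51 to 8.17 CPM in KO. Pcdhb6, with the smallest p of the cluster, lay at 1.07 to 1.41 and 1.23 to 1.84 CPM (log2 fold change 0.27, SE 0.17, edgeR adjusted p = 0.883, and 0.17 without KO replicate 3). All 22 together held 56.9 ± 4.77 CPM over the WT libraries and 58.3 ± 1.74 CPM over the KO libraries (SD, n = 4 each), so the whole beta cluster held a small part of what the 1 gamma row held.

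**Figure D4:**
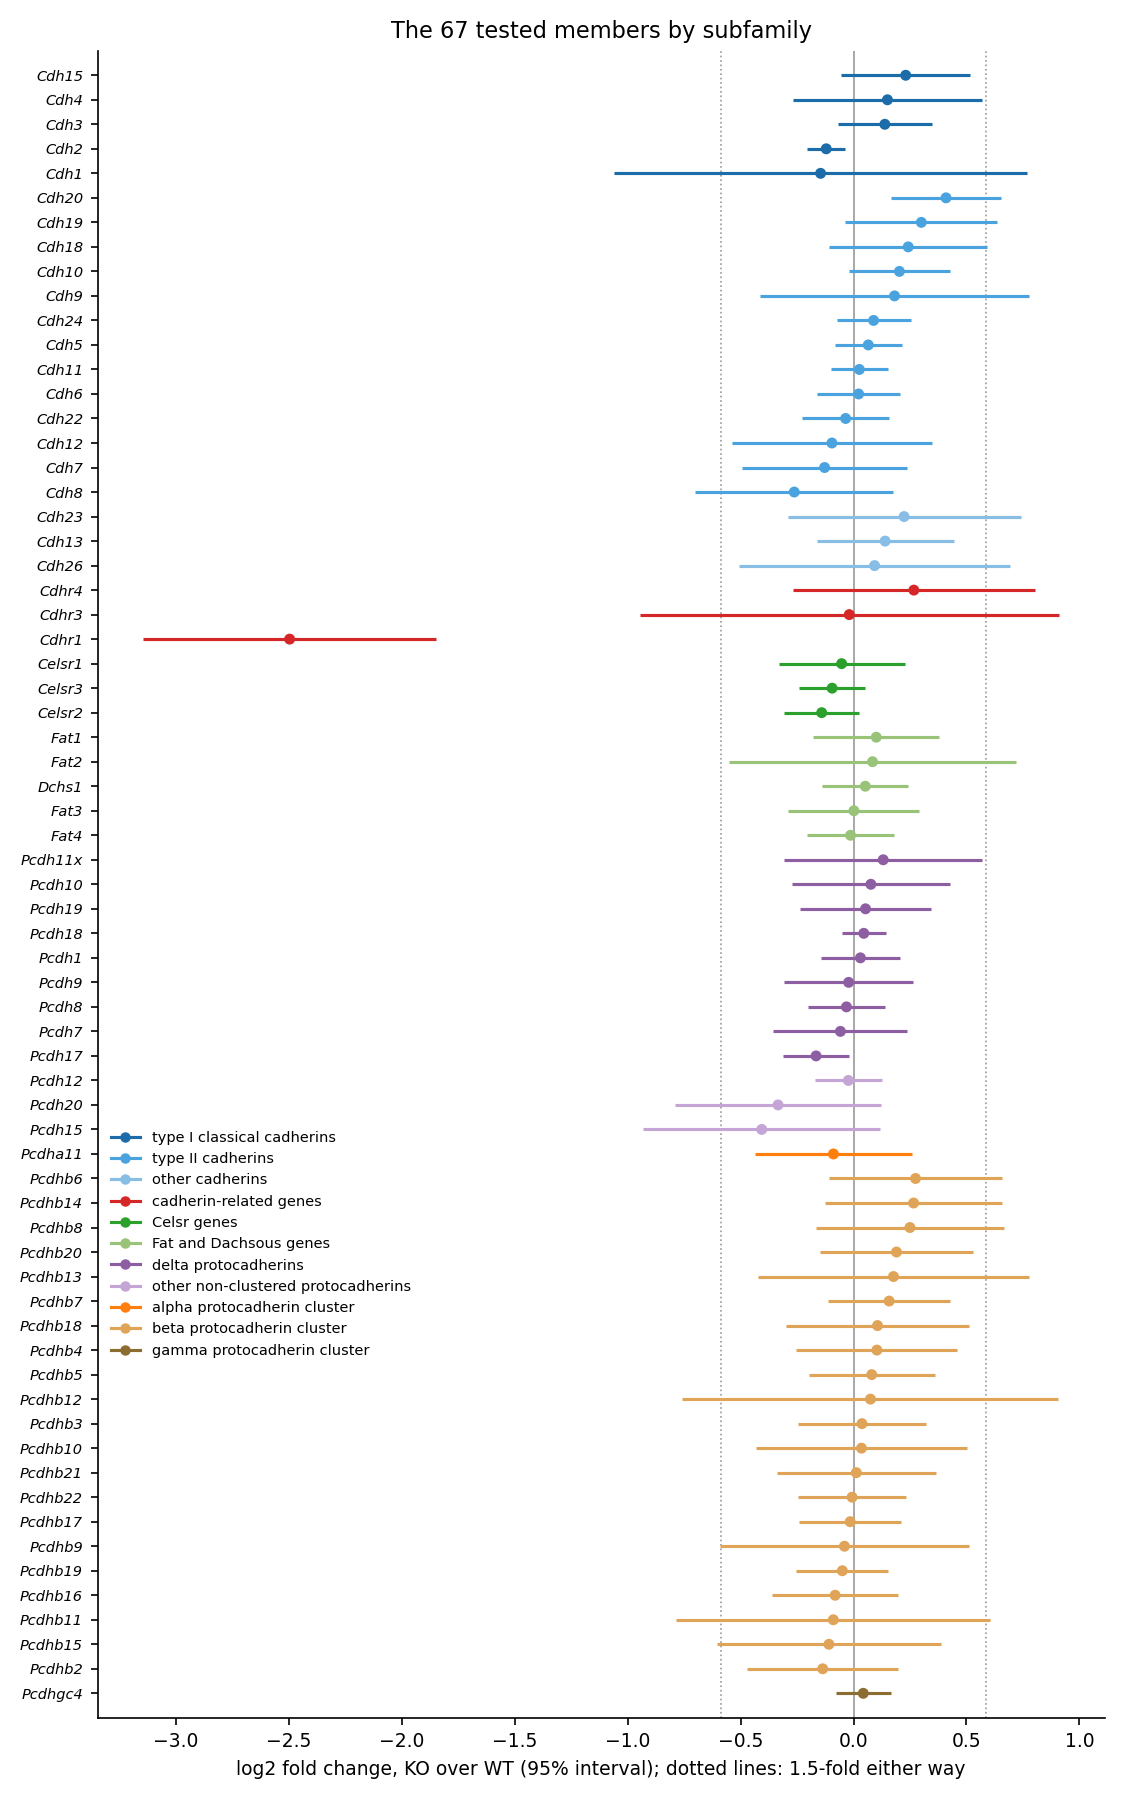
Log2 fold change, KO over WT, of the 67 tested members (points) with 95% intervals (bars), grouped by subfamily. Cdhr1 lies at −2.50 and the other 66 point estimates lie between −0.41 and 0.41.

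Leaving Cdhr1 aside, the point estimates of the other 66 tested members lay between −0.41 and 0.41 on the log2 scale. The 95% interval lay within 1.5-fold either way for 45 of the 67 members, or 67.2%, against 82.3% of all genes. For the other 22, Cdhr1 among them, the data allow a difference of over 1.5-fold in at least 1 direction. The summed CPM of the family was 3388 ± 192 over the WT libraries and 3393 ± 175 over the KO libraries (SD, n = 4 each). WT replicate 1 was the lowest WT library for 43 of the 67 members, or 64.2%, against 34.1% of all genes. KO replicate 3 was the lowest KO library for 32 members, or 47.8%, against 22.3% of all genes. These 2 libraries were picked out after the values were seen, and they differ from others of the same genotype.

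By level per kb of exon, averaged over the 8 libraries, the Pcdhgc4 row stood first at 96.1 ± 5.34 CPM per kb (SD, n = 8). Over only the exon bases that no other annotated gene covers it would be 155 CPM per kb, so the value depends on the exons counted. The Pcdha11 row likewise stood 16th at 6.61 CPM per kb, and 10th at 14.2 CPM per kb over such bases, where Cdh4 became 16th. After the Pcdhgc4 row came Pcdh18 (36.0 CPM per kb), Cdh11 (33.6), Cdh2 (29.4), Cdh5 (28.1), Celsr2 (26.9) and Dchs1 (26.8). Neighbours in that run overlapped in their library ranges. A gap without overlap separated Dchs1 from Fat1 at 14.8 CPM per kb, which was followed by Cdh15 (14.3), Fat4 (11.3), Cdh3 (10.9), Cdh24 (10.9), Celsr3 (8.75), Cdh4 (8.42) and Pcdh8 (8.33). Each of these overlapped the next. The leading members thus belong to several tissues: cadherins known from neural tube, mesenchyme, endothelium and muscle all stand among the first 15.

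**Figure D5:**
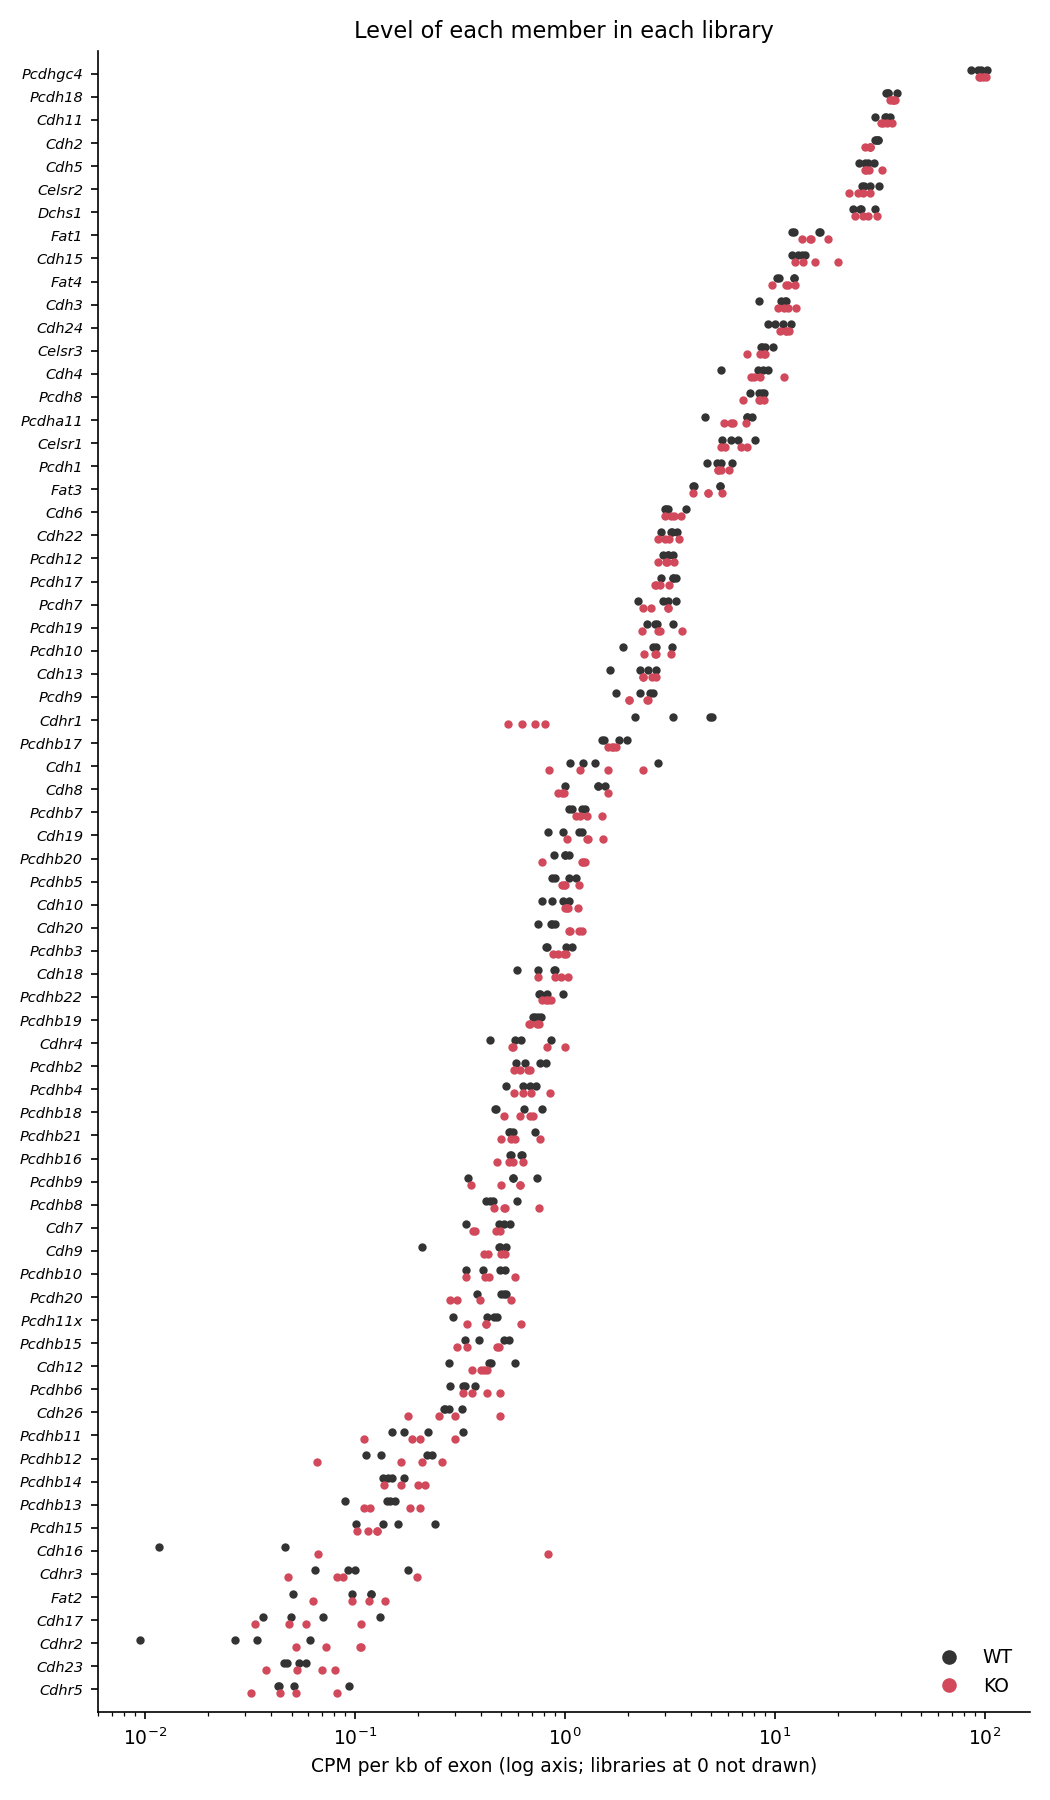
Level of each member with counts in CPM per kb of exon (horizontal axis, log scale, libraries at 0 not drawn), 1 point a library, WT dark and KO red, ordered by mean level. The Pcdhgc4 row lies highest at 86.3 to 103 CPM per kb, and all 4 KO points of Cdhr1 lie to the left of its 4 WT points with a wide gap between them.

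The genes that work with cadherins were examined in 7 lists of 80 genes, of which 76 were tested. In edgeR 0 were called in either direction, against 0.299% of all genes. At an unadjusted p under 0.05, 1 of the 76 was higher (Prickle1) and 3 were lower (Ctnnd2, Cyfip2, Abi2), beside 3.03% and 3.32% of all genes. Point estimates were above 0 for 30 of the 76 and below 0 for 46, with a median log2 fold change of −0.026. Among 12 catenins and their relatives, Ctnnd2, the delta-catenin of neurons that binds the cadherin tail, stood at 44.9, 63.0, 63.1 and 64.2 CPM in WT and 45.9, 50.2, 42.0 and 44.7 CPM in KO replicates 1 to 4. WT replicate 1 sat among the KO libraries, while the other 3 WT libraries lay above all KO libraries. The log2 fold change was −0.36 (SE 0.11, edgeR adjusted p = 0.547). It was −0.47 (edgeR adjusted p = 0.00203) without WT replicate 1 and −0.46 (edgeR adjusted p = 0.00692) without WT replicate 1 and KO replicate 4, so this call rests on leaving that library out. Sensory neuron markers were also lowest in that WT library, and their part in the Ctnnd2 values was not tested. Arvcf, another p120-type catenin, had a log2 fold change of −0.10 (SE 0.05, edgeR adjusted p = 0.806).

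In the WAVE complex that delta protocadherins recruit to move actin, 12 genes were tested with their partners and 0 passed. Cyfip2 stood at 180.5, 201, 194 and 186 CPM in WT and 168, 171, 155 and 177 CPM in KO replicates 1 to 4. All KO libraries lay below all WT libraries (log2 fold change −0.18, SE 0.05, edgeR adjusted p = 0.369). Abi2 lay at 120 to 130.5 and 107 to 119 CPM, also without overlap (log2 fold change −0.12, SE 0.04, edgeR adjusted p = 0.664). Without WT replicate 1 and KO replicate 4 it was −0.059.

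In the other lists 0 genes passed. Of 15 planar cell polarity partners of the Celsr genes, Prickle1 had a log2 fold change of 0.14 (SE 0.06, edgeR adjusted p = 0.755) and Ptk7, a polarity receptor, 0.13 (SE 0.06, edgeR adjusted p = 0.793). Of 11 partners of Fat and Dachsous, the kinase gene Taok1 stood at −0.13 (SE 0.06) and the Hippo co-activator gene Wwtr1 at 0.05 (SE 0.03) on the same scale. Of 7 cleavage enzymes, the shedding protease genes Adam10 and Mmp14 stood at −0.06 (SE 0.04) and 0.12 (SE 0.08). Of 12 regulators of the clustered protocadherins, Ctcf, which binds their promoters, stood at −0.06 (SE 0.05) and the cohesin loader Nipbl at −0.06 (SE 0.05). Of 11 desmosomal cadherins and calsyntenins, 7 were tested, with Clstn1 at −0.03 (SE 0.05) and the desmoglein Dsg2 at 0.13 (SE 0.25). The edgeR adjusted p-values of these last 8 genes lay between 0.813 and 0.971. Without WT replicate 1 the values were −0.079 for Taok1, 0.056 for Mmp14 (0.19 without WT replicate 2), −0.021 for Ctcf, −0.015 for Nipbl and 0.42 for Dsg2. Without KO replicate 4 they were 0.068 for Ptk7 and −0.0062 for Dsg2. Adam10 was at −0.034 without WT replicate 2, and Clstn1 at 0.0065 without KO replicate 3.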

How the data were processed

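Total RNA of the 8 samples was isolated on spin columns and made into standard Illumina libraries, per the labels' protocols. The values the authors deposited are raw read counts per gene, as whole numbers, 1 file a library. Tools named in the submitters' processing notes are DESeq2 1.8.2, featureCounts 1.4.6-p1, FastQC 0.10.1, SAMtools 0.1.18 and STAR 2.3.0e, with build mm10. Not given in the sources used here are their settings, the annotation release, strand and the handling of shared reads, so overlapping, antisense and near-identical genes cannot be told apart. Each file had 38355 genes and 5 summary rows at 0, which were left out. GENCODE M21 (GRCm38) named 36602 identifiers, and the 1753 without a match held 0.263% of counts. Promoter letters are from RefSeq.

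All genes entered 1 edgeR fit (version 4.0.16, under R 4.3.3): filterByExpr, TMM (factors 0.991 to 1.012), robust quasi-likelihood F test, group alone, Benjamini-Hochberg over 16068 genes at 0.05. The biological coefficient of variation was 9.57%. Each SE is |log2 fold change| over the root of its F value. The scripts were tested on simulated data. Alternatives were DESeq2 1.42.0, limma-voom (limma 3.58.1), unscaled totals, RLE factors, no filter, at least 1 CPM in 4 libraries, a replicate block, a muscle and mesenchyme covariate, thinning of WT replicate 1, and leaving out each library. Leaving out WT replicate 1 and KO replicate 4 together was added after seeing the data.

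The members and lists were chosen with earlier results of these data known. Named are Cdhr1, members with an unadjusted p under 0.05, the 15 highest by CPM per kb, the smallest p and highest level of each subfamily, the 2 smallest p of each partner list, genes within 200 kb of Cdhr1, and Prdm12. Others were named after their values were seen. Besides the marker lists in the report, 7 spinal neuron markers summed to 1702 to 2058 CPM in WT and 1575 to 1779 CPM in KO, 4 erythroid markers to 1587 to 2323 and 1259 to 2819 CPM, and 4 macrophage markers to 35.1 to 44.2 and 37.7 to 42.3 CPM. A list of 6 nephric and mesothelial genes, added after the values were seen, summed to 79.3 to 87.0 CPM in WT and 72.2 to 114 CPM in KO. Figures were drawn with matplotlib 3.10.9.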

Additional observations from a re-analysis of the deposited data

Results flagged for a closer look

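In each group of 4 libraries, the highest or lowest library was compared with the other 3, for every member and every subfamily and marker sum. A library was noted where its gap to the nearest other was too large a part of the group's range by Dixon's 95% criterion. This marked 12 of 186 groups, or 6.45%, where chance marks about 5%. Of these, 3 were at WT replicate 1 and 1 at KO replicate 4.

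Among classical cadherins, Cdh2 was low in KO replicate 3, at 217 CPM against 230.1 to 231 in the other KO libraries. Cdh6 was high in WT replicate 2, at 34.2 CPM against 27.2 to 28.1. Cdh8, a synaptic cadherin, was high in KO replicate 2, at 12.5 CPM against 7.20 to 7.69, and Cdh9 was low in WT replicate 1, at 0.743 CPM against 1.72 to 1.87. Cdh16, the kidney cadherin, stood at 3.15 CPM in KO replicate 4 against 0 to 0.253.

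Among protocadherins, Pcdh18 was high in WT replicate 2, at 204 CPM against 183 to 186. The Pcdha11 row, the whole alpha cluster in the files, was low in WT replicate 1, at 25.0 CPM against 39.7 to 42.0, and as gene and as cluster it was counted 2 times. Pcdhb20 was low in KO replicate 1, at 2.78 CPM against 4.32 to 4.46. In the same library Pcdhb5 was high, at 4.15 CPM against 3.45 to 3.56. Pcdhb21 was high in WT replicate 3, at 3.41 CPM against 2.55 to 2.66. The summed CPM of the family was highest in WT replicate 2, at 3676 against 3278 to 3314 in the other WT libraries.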

How the results depend on the processing

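For 33 named genes other than Cdhr1, 594 log2 fold changes were recomputed, of which 580 kept their direction and their side of the threshold. The muscle and mesenchyme covariate largely follows genotype (6.45 to 6.63 in WT, 6.61 to 6.87 in KO), so that fit cannot separate them well. With the muscle and mesenchyme covariate the sign turned for Cdh13 (−0.11), Fat1 (−0.024), Pcdhgc4 (−0.092), Cdh15 (−0.15), Arvcf (0.0071), Ptk7 (−0.016), Mmp14 (−0.038) and Ctcf (0.0085). Without WT replicate 1 and KO replicate 4 together it turned for Cdh13 (−0.0098) and Pcdhgc4 (−0.015), without KO replicate 3 for Clstn1 (range over the left-out libraries −0.051 to 0.0065) and without KO replicate 4 for Dsg2 (range −0.0062 to 0.42). Ctnnd2 was called without WT replicate 1 (−0.47) and without both libraries (−0.46), which made 1 partner gene called in each against 0, and 0 to 1 over the fits that leave out 1 library.

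Cdhr1 lost its call with limma-voom (−2.31), no filter on low counts (−2.50) and the covariate (−3.02), where 0 members were called lower. Leaving out 1 library gave −2.70 to −2.34 for Cdhr1 and 0 to 1 members called lower, 0 without any 1 KO library. Over all genes the counts moved by more than 1.5 times from 9 higher and 39 lower: 22 and 81 with DESeq2, 0 and 1 with the covariate, 21 and 91 without both libraries, and 3 to 21 higher and 12 to 112 lower when 1 library was left out, the highest of both without WT replicate 1. Fits without a library hold fewer samples; beyond that, the cause was not tested. With unshared exon bases the level was 155 CPM per kb for Pcdhgc4, 14.2 for Pcdha11 (6.61 with all exon bases, and 10th in place of 16th) and 9.21 for Pcdh8.

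The labels state no pairing by replicate number. Correlations of same-numbered WT and KO deviations were −0.11, 0.32, −0.22 and −0.01. With so few libraries these values cannot show whether the samples were paired. With the replicate block 2 genes were called higher and 14 lower, and Cdhr1 was at −2.45 (edgeR adjusted p = 0.00323). Members below 1 CPM rest on few reads, and a count of 3 is 0.044 to 0.130 CPM.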
